A study of Mus musculus with 6 samples.

Results

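The genes described here are listed as markers of the corneal stroma and of the periocular mesenchyme, the loose tissue around the developing eye, measured in RNA from lenses. They were chosen by name: 9 genes, of which Kera, Lum, Dcn and Ogn encode small leucine-rich proteoglycans, Foxc1 and Foxc2 encode transcription factors, and Postn, Fbn1 and Thbs2 encode matrix proteins. Every probe set annotated to a single one of these symbols was taken, which gave 11 of 22626 probe sets tested and 8 of 12393 genes. No probe set carried Fbn1 as its single symbol, so Fbn1 was not analysed here. RNA came from newborn (P0) mice, with 3 arrays of lenses from Le-AP-2alpha conditional mutants and 3 arrays of lenses from wild-type littermates. In the mutants the target is Tcfap2a, now called Tfap2a, the gene for the transcription factor AP-2alpha. Le is the usual name of a transgene in which a Pax6 regulatory element drives Cre recombinase in the surface ectoderm that forms the lens and the corneal epithelium, but the labels do not state the driver. They name no other allele, no strain and no agent. Whether a sample was 1 animal or pooled lenses is not stated either, so the p-values rest on a spread between samples that may be partly technical.

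In the normal eye, cells of the periocular mesenchyme, many of neural crest origin, migrate between the lens and the surface and form the corneal stroma and endothelium. Stromal cells, the keratocytes, deposit collagen fibrils whose spacing depends on keratan sulfate proteoglycans such as keratocan and lumican. Foxc1 and Foxc2 act in this mesenchyme, and in mice without Foxc1 the cornea fails to separate from the lens. AP-2alpha is needed in the ectoderm for the lens vesicle to separate from it, the question named in the title of the series.

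Each value below is the log2 of the deposited intensity of a probe set, and a difference is mutant minus wild type on that scale. Probe sets differ in how strongly they bind their target, so the level of one gene is not set against that of another. A probe set is called dim where its mean lay below that of the median probe set, a log2 of 5.26. The highest level on an array lay between 13.90 and 13.97, and the medians of the arrays between 5.19 and 5.32. Wild-type replicate 1 stood apart: its Pearson correlation with another array, over all probe sets, was 0.926 to 0.945, against 0.974 to 0.985 between any other pair. Where leaving out this or another array moved a difference by more than 1.5 times, the value without it or the range over the arrays left out in turn is given. Of 9 measured lens markers, 8 were brighter than the median probe set. Cryaa, an alpha crystallin, was at 13.68 ± 0.08 (SD, n = 3) in mutants and 13.73 ± 0.07 (SD, n = 3) in wild types. By the mean, 2 lens markers were higher and 7 lower in mutants. Their median difference was -0.15, and -0.28 to -0.03 with each array left out in turn. The groups did not overlap for 2 of the 9, against 8.8% of all genes. These were Bfsp1 (-0.65 ± 0.22, SE) and the dim Foxe3 (-0.71 ± 0.29), both with a limma adjusted p of 0.999. Tfap2a was not lower in mutants, with differences of 1.57 ± 0.49, 0.36 ± 0.36 and 0.62 ± 0.33 (SE) on its 3 probe sets. With each array left out in turn these ran from 1.25 to 1.96, from 0.07 to 0.59 and from 0.27 to 0.87. Neither the deleted exons nor the positions of the probes are known here, so the Tfap2a signal is no check of the deletion.

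Because the mutated gene encodes a factor that binds DNA, the start regions of members are shown with the palindrome GCCNNNGGC, the consensus letters of an AP-2 site, in capitals. The windows run from 250 bases before to 50 after a gene start, come from RefSeq on build GRCm38.p6, and were found for 6 of the 9 members. The window of Ogn is chr13:49607765-49608064, that of Kera chr10:97606955-97607254 and that of Foxc1 chr13:31806396-31806695. The Postn window, from the downstream of its 2 starts, is chr3:54360857-54361156, and all 4 windows lie on the plus strand. Ogn and Kera are shown as proteoglycan genes with a bright and a dim probe set, Foxc1 and Postn as members whose window holds the palindrome:
Ogn: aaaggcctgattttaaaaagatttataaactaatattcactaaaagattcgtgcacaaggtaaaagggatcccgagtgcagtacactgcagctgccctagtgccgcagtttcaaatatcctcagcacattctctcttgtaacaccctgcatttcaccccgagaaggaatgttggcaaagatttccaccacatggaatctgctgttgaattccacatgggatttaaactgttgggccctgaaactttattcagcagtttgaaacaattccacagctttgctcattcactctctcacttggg
Kera: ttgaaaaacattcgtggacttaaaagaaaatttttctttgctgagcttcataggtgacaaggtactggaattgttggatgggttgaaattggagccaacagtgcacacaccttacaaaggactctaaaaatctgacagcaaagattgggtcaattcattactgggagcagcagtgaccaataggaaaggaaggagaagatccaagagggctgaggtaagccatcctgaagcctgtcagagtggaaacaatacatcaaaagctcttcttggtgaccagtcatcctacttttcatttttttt
Foxc1: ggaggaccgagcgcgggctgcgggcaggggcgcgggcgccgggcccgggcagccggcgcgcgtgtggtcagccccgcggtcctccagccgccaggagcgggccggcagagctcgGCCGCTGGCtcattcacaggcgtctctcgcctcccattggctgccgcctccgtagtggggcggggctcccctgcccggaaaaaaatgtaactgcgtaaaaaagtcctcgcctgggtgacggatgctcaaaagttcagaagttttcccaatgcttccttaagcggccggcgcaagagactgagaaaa
Postn: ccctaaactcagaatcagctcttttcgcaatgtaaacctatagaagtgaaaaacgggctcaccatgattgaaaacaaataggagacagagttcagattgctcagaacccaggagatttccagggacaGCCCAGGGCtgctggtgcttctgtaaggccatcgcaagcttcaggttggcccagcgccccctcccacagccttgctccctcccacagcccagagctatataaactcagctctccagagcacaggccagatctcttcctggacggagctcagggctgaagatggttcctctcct
Of the 7 windows of members, 3 held the palindrome, those of Foxc1, Fbn1 and the downstream start of Postn, against 16.6% of all 32851 windows of the same length. The palindrome reads the same on both strands, and a match is a run of letters, not a measured binding site. No match says only that these letters are not in this window.

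Kera, which encodes keratocan, and Lum, which encodes lumican, the keratan sulfate proteoglycans that define the corneal stroma, were dim on every array. Kera (1418063_at) was at 3.01, 2.92 and 2.65 in mutants, against 2.73, 2.90 and 3.11 in wild types. The groups overlapped throughout, and the difference was -0.05 ± 0.20 (SE), with a 95% interval of -0.53 to 0.42 and values of -0.14 to 0.05 with each array left out in turn. Its mean was higher than that of 15.0% of probe sets. Lum (1423607_at) was at 3.74, 2.99 and 3.15 in mutants, against 3.13, 2.56 and 2.79 in wild types. Mutant replicate 1 was the highest and the groups overlapped, with a difference of 0.47 ± 0.27 and an interval of -0.18 to 1.12. Without mutant replicate 1 the difference of Lum was 0.25. Each gene rests on 1 probe set, so the label of the list could not be checked further with them. Ogn, described below, lay above the median probe set on every array. The label is therefore only a name for the list, and the genes are described by name.

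Dcn, which encodes decorin, a proteoglycan of fibrous connective tissue that binds collagen, stood out in a single array. Dcn (1449368_at) was at 6.46, 3.44 and 3.58 in mutants, against 3.59, 2.99 and 2.78 in wild types. Mutant replicate 1 alone was brighter than the median probe set, while the other mutants lay within the range of the wild types. The difference was 1.37 ± 0.81 (SE), with an interval of -0.57 to 3.31, and it was 0.39 without mutant replicate 1. In bulk tissue, more cells of a type and more RNA per cell cannot be told apart.

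Ogn, which encodes osteoglycin, also called mimecan, a proteoglycan that carries keratan sulfate in the cornea, gave strong signal in every lens sample. Its probe set 1419663_at was at 10.61, 10.81 and 10.97 in mutants, against 10.83, 11.02 and 11.01 in wild types. The groups overlapped, and the difference was -0.16 ± 0.18 (SE), with an interval of -0.60 to 0.28 and values of -0.24 to -0.06 with each array left out in turn. Its second probe set, 1419662_at, was at 8.69, 7.73 and 8.56 in mutants, against 9.55, 8.90 and 8.55 in wild types. Mutant replicate 2 was the lowest and wild-type replicate 1 the highest, the groups overlapped by a narrow margin, and the difference was -0.68 ± 0.37. It was -0.40 without wild-type replicate 1 and -0.38 without mutant replicate 2. Among protein-coding genes of chromosome 13 in RefSeq, the proteoglycan genes Aspn and Omd lie next to Ogn; both were dim, averaging 3.01 and 3.84 over the 6 arrays. On chromosome 10 Dcn, Lum, Kera and the proteoglycan gene Epyc follow each other, and the mean of Epyc was 2.38.

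**Figure D1:**
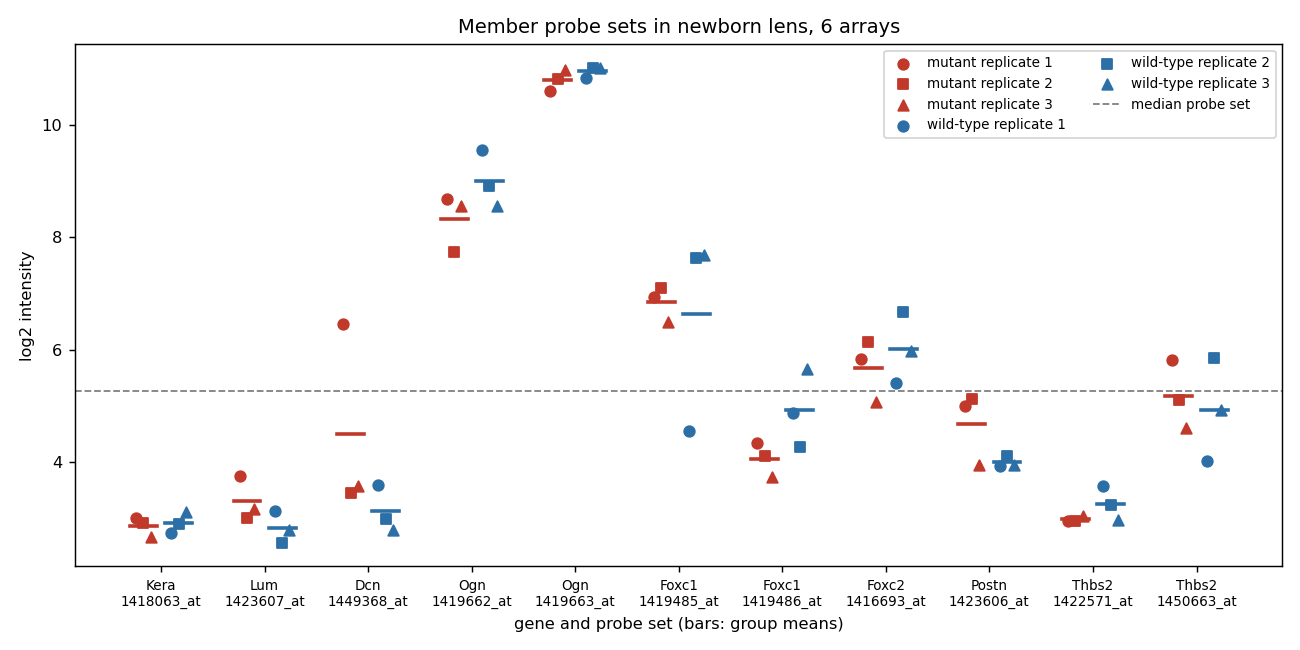
Log2 intensity (vertical axis) of the 11 member probe sets in each of the 6 arrays, with mutants in red to the left of wild types in blue, short bars for group means and a dashed line for the median probe set at 5.26. Dcn is high in mutant replicate 1 alone (6.46), the first Foxc1 probe set is low in wild-type replicate 1 alone (4.56), and the groups overlap for every probe set.

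Foxc1, a forkhead factor of the periocular mesenchyme, had probe sets that differed in pattern. Foxc1 on 1419485_at was at 6.93, 7.09 and 6.49 in mutants, against 4.56, 7.63 and 7.69 in wild types. All 3 mutants lay below wild-type replicates 2 and 3 and above wild-type replicate 1, and the difference was 0.21 ± 0.84 (SE), with an interval of -1.79 to 2.22. With wild-type replicate 1 left out it was -0.82 ± 0.24 (limma adjusted p = 0.783), and with each of the other arrays left out in turn it was 0.09 to 0.75. The second Foxc1 probe set, 1419486_at, which was dim, was at 4.33, 4.11 and 3.74 in mutants, against 4.87, 4.26 and 5.65 in wild types. Wild-type replicate 1 was not the lowest wild type here, the groups overlapped through mutant replicate 1 and wild-type replicate 2, and the difference was -0.87 ± 0.38. With wild-type replicate 1 left out it was -0.89 ± 0.43 (limma adjusted p = 0.932), without wild-type replicate 3 it was -0.50, and without wild-type replicate 2 it was -1.20.

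Foxc2, the close relative of Foxc1 that acts with it in mesenchyme and in blood and lymph vessels, had lower means in mutants without passing the test. Foxc2 (1416693_at) was at 5.83, 6.13 and 5.06 in mutants, against 5.40, 6.66 and 5.98 in wild types. The groups overlapped, and the difference was -0.34 ± 0.41 (SE), with an interval of -1.32 to 0.65. It was -0.65 without wild-type replicate 1, -0.57 without mutant replicate 2, -0.03 without mutant replicate 3 and -0.02 without wild-type replicate 2. Cells of vessels and their pericytes, in which both factors are also active, were measured by 7 of 7 and 5 of 5 listed markers. The summed intensity of the vessel markers was 1138 to 1648 in mutants, against 1277 to 1922 in wild types, and that of the pericyte markers 1528 to 2017 in mutants, against 548 to 3974 in wild types. The pericyte sum is mostly that of Rgs5, lowest in wild-type replicate 1 (8.24). By contrast 3 of the 5 pericyte markers, Cspg4, Kcnj8 and Anpep, were highest in that array, as were 4088 of all 12393 genes. The part of these cells in the Foxc1 and Foxc2 values was not tested.

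Postn, which encodes periostin, a matricellular protein of collagen-rich tissue, was dim on every array. Postn (1423606_at) was at 4.99, 5.11 and 3.94 in mutants, against 3.93, 4.10 and 3.94 in wild types. Mutant replicates 1 and 2 lay above all wild types and mutant replicate 3 within them, with a difference of 0.69 ± 0.34 (SE) and an interval of -0.11 to 1.5. Without mutant replicate 3 it was 1.06, and without mutant replicate 2 it was 0.48. Thbs2 encodes thrombospondin 2, a matricellular protein that affects how collagen fibrils assemble. On 1450663_at it was at 5.81, 5.11 and 4.60 in mutants, against 4.01, 5.85 and 4.92 in wild types, with the ranges overlapping almost throughout and a difference of 0.24 ± 0.52. With each array left out in turn that difference ran from -0.22, without wild-type replicate 1, to 0.70, without wild-type replicate 2. The other Thbs2 probe set, 1422571_at, was at 2.94, 2.95 and 3.03 in mutants, against 3.58, 3.23 and 2.96 in wild types, with a difference of -0.28 ± 0.21 that was -0.12 without wild-type replicate 1 and -0.43 without wild-type replicate 3. Both Thbs2 probe sets were dim.

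Set against all probe sets, no member passed. limma called 0 of the 11 member probe sets at an adjusted p under 0.05, and 0% of all 22626 probe sets, with an adjusted p of 0.999 for each member. At an unadjusted p under 0.05 there were 0 member probe sets, against 3.28% of all probe sets. The groups did not overlap for 0 of the 11 member probe sets, against 8.36% of all probe sets. By the brightest probe set of each gene, 5 of the 8 measured members had a higher mean in mutants and 3 a lower one, where 47.8% of all genes had a higher mean. Their median difference was 0.23, against -0.01 over all genes, and without wild-type replicate 1 it was -0.18, with 3 of 8 higher. Without mutant replicate 1 it was 0.05, with 4 of 8 higher, and without mutant replicate 3 and wild-type replicates 2 and 3 in turn it was 0.46, 0.52 and 0.35. The intervals were widest for Foxc1 on 1419485_at and for Dcn, and narrowest for Ogn on 1419663_at and for Kera, as the plot of differences shows.

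**Figure D2:**
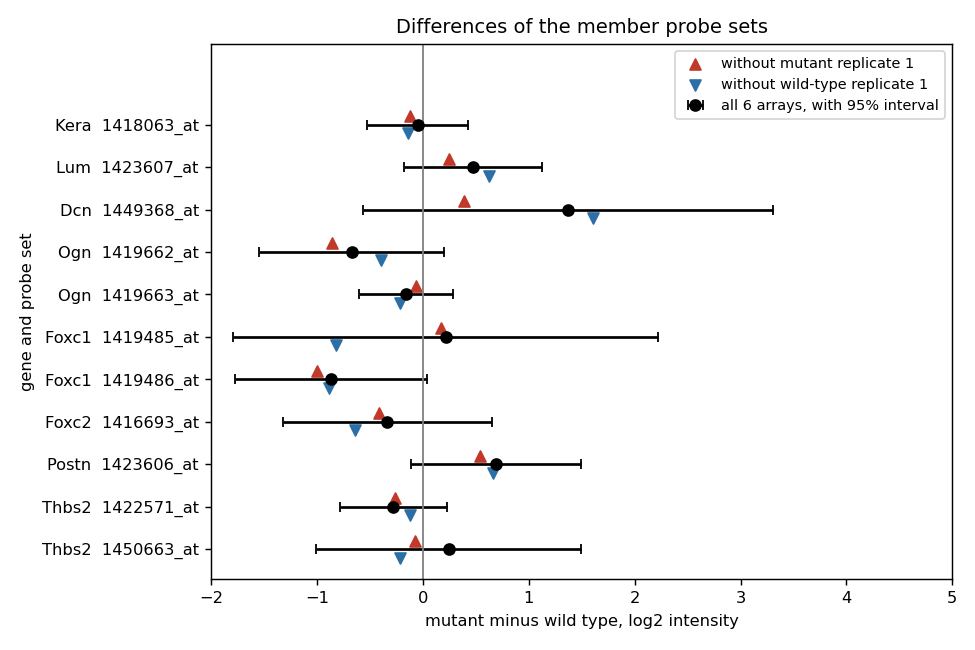
Difference in log2 intensity, mutant minus wild type (horizontal axis), for the 11 member probe sets, as black points with 95% intervals from limma, with the difference without mutant replicate 1 as red triangles and without wild-type replicate 1 as blue triangles. Every interval includes 0, Dcn moves to 0.39 without mutant replicate 1, and the first Foxc1 probe set moves to -0.82 without wild-type replicate 1.

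Other genes of the same roles were counted from lists, and no gene of these lists passed the test. Of the other small leucine-rich proteoglycans 8 of 10 were measured, 1 higher and 7 lower in mutants, with a median difference of -0.16. Those of lowest p were Omd, which encodes osteomodulin (-0.37 ± 0.35, SE), and Aspn, which encodes asporin (-0.18 ± 0.20), both dim, and neither separated the groups. The difference of Omd was -0.02 without wild-type replicate 2 and -0.69 without wild-type replicate 3, and that of Aspn was -0.08 without mutant replicate 1 and -0.32 without mutant replicate 2. With each array left out in turn the median of this list ran from -0.38, with 0 of 8 higher (without mutant replicate 2), to 0.16, with 5 of 8 higher (without mutant replicate 3). Without mutant replicate 1 it was -0.08, with 2 of 8 higher, and without wild-type replicate 1 -0.06, with 4 of 8 higher. Of 8 genes for keratan sulfate synthesis 7 were measured, 6 higher and 1 lower, with a median difference of 0.28. Chst1, a sulfotransferase that acts on keratan sulfate, was dim by its mean. It was at 5.35, 5.30 and 4.73 in mutants, against 4.41, 4.19 and 4.12 in wild types. It was the only gene of this list whose groups did not overlap, against 8.8% of all genes in either direction, and its difference of 0.89 ± 0.23 had a limma adjusted p of 0.999. Chst2, another sulfotransferase, differed by 0.49 ± 0.41, but by 0.11 without wild-type replicate 2 and by 0.93 without wild-type replicate 1. With each array left out in turn the median of the list ran from -0.02, with 3 of 7 higher (without wild-type replicate 1), to 0.48. It was 0.10 without mutant replicate 2 and 0.11 without wild-type replicate 2.

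Of 12 other factors of the periocular mesenchyme 11 were measured, 7 higher and 4 lower, with a median difference of 0.13 that ran from 0.05, without wild-type replicate 2, to 0.19 with each array left out in turn. Tfap2b, an AP-2 family gene active in neural crest cells around the eye, was at 7.80, 7.27 and 6.84 in mutants, against 3.95, 6.10 and 6.34 in wild types, the lowest being wild-type replicate 1. Its groups did not overlap, with a difference of 1.84 ± 0.65 (SE) that was 1.08 without wild-type replicate 1 and a limma adjusted p of 0.999. Meox2, a homeobox gene of mesoderm and vessels, was dim and differed by 0.59 ± 0.35, by 0.22 without mutant replicate 2 and by 0.90 without mutant replicate 1. Of 22 microfibril and matricellular genes 21 were measured, 10 higher and 11 lower, with a median of -0.01, and with 9 to 13 higher and a median of -0.02 to 0.20 as each array was left out in turn. The groups did not overlap for 3 in which mutants were higher and 3 in which mutants were lower, against 4.22% and 4.58% of all genes. Efemp1, which encodes a fibulin, was at 4.38, 5.16 and 3.74 in mutants, against 3.46, 3.30 and 2.96 in wild types (1.19 ± 0.38), and Emilin1, which encodes a protein of elastic fibres, differed by -0.50 ± 0.17. Both were dim, with a limma adjusted p of 0.999.

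**Figure D3:**
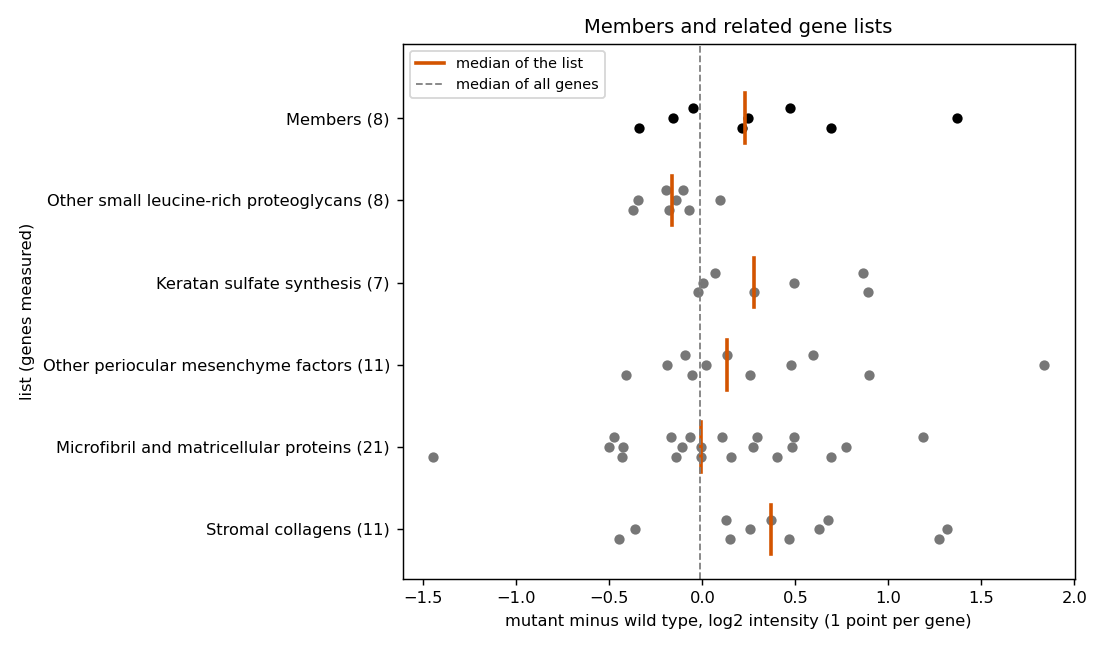
Difference in log2 intensity, mutant minus wild type (horizontal axis), for each measured gene of the members and of the related lists (vertical axis, number measured in brackets), with an orange bar at the median of a list and a dashed line at the median of all genes (-0.01). The medians run from -0.16 for the other proteoglycans to 0.37 for the stromal collagens, and the lists spread over both sides of 0.

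The listed collagens of the stroma include the fibrils that these proteoglycans coat, and several of the chains were highest in mutant replicate 1. Of 12 listed chains 11 were measured, 9 higher and 2 lower in mutants, with a median difference of 0.37. It was 0.22, with 7 of 11 higher, without mutant replicate 1, 0.31, also with 7 of 11 higher, without wild-type replicate 1, and 0.76, with 8 of 11 higher, without mutant replicate 3. Mutant replicate 1 was the highest of the 6 arrays for 5 of the 11 chains, against 1178 of all 12393 genes. By the brightest probe set, it was the highest for 2 of the 8 measured members, Dcn and Lum. Postn was highest in mutant replicate 2. Ogn, Foxc2 and Thbs2 were highest in wild-type replicate 2, and Kera and Foxc1 in wild-type replicate 3. Col1a1, the main fibril chain, was at 8.10, 6.86 and 6.40 in mutants, against 4.84, 5.90 and 6.67 in wild types. Col3a1 was at 6.58, 5.49 and 4.50 in mutants, against 5.39, 4.97 and 5.45 in wild types. In both, mutant replicate 1 was the highest array and the groups overlapped. Col1a1 differed by 1.32 ± 0.60 (SE) with all arrays, and mutants stayed higher, by 0.83, once mutant replicate 1 was dropped. Over the arrays left out in turn its difference ran from 0.83 to 1.75. Col3a1 differed by 0.25 with all arrays, by -0.28 once mutant replicate 1 was dropped and by 0.76 once mutant replicate 3 was. By contrast Col6a1, a chain of the microfibrils that link fibrils to cells, was at 5.79, 6.11 and 5.79 in mutants, against 4.43, 4.80 and 4.65 in wild types, a difference of 1.27 ± 0.20 (SE) with a limma adjusted p of 0.77. Col5a2, which helps to start fibrils, differed by 0.67 ± 0.29 (0.45 to 0.84 with each array left out in turn), with groups that did not overlap and a limma adjusted p of 0.999. The groups of Col12a1, which was dim, did not overlap either, with mutants lower (-0.45 ± 0.22, and -0.29 without wild-type replicate 3). Of the 11 chains, 2 thus separated the groups with mutants higher, Col6a1 and Col5a2, and 1 with mutants lower. Over all genes these shares were 4.22% and 4.58%.

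**Figure D4:**
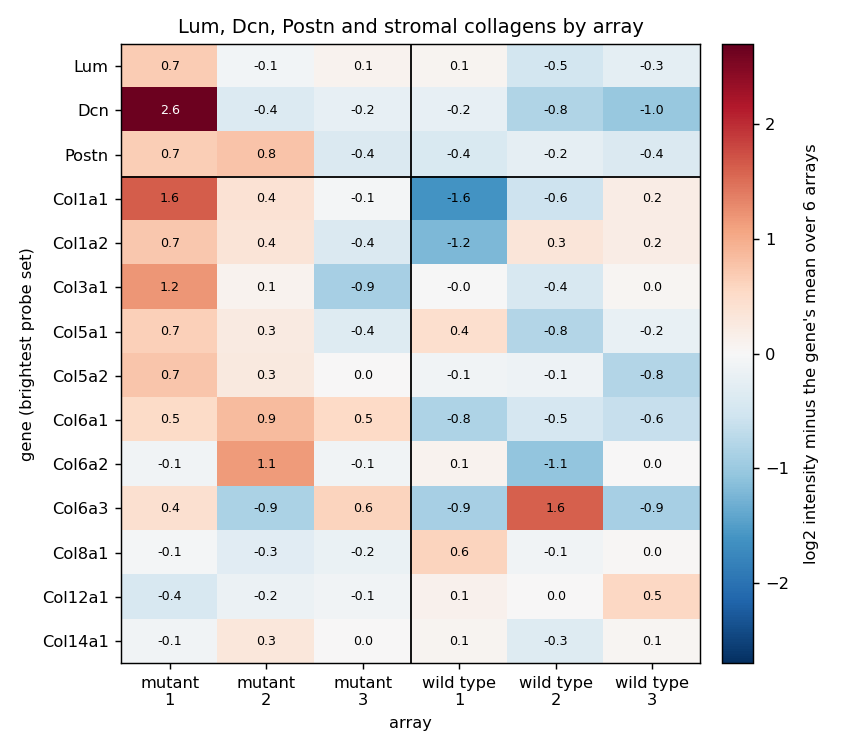
Log2 intensity minus the mean of the gene over the 6 arrays, as colour and printed value, for Lum, Dcn and Postn (above the line) and the 11 measured stromal collagens (below it), with mutants in the left 3 columns and wild types in the right 3. Dcn, Col1a1 and Col3a1 are highest in mutant replicate 1, and Col6a1 is above its mean in all 3 mutants. The other measured members are not shown.

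Markers of other cell types that the dissected samples could hold were read on the same arrays, and their part in the values above was not tested. For the corneal epithelium, 0 of 6 markers were brighter than the median probe set; Krt12, its defining keratin, was at 2.43, 2.87 and 2.60 in mutants, against 2.78, 2.37 and 2.55 in wild types, and the summed intensity was 60.7 to 62.0 in mutants, against 51.0 to 57.3 in wild types. For eyelid and eye muscle, 0 of 6 were brighter than the median probe set, and the sum was 46.1 to 58.0 in mutants, against 52.2 to 65.9 in wild types. For macrophages, 4 of 8 were brighter than the median. The sum was 692 to 3058 in mutants, against 605 to 921 in wild types, the highest in mutant replicate 2. That array was the highest for 7 of the 8 macrophage markers, against 1676 of all 12393 genes. For pigment cells, 3 of 4 measured markers were brighter, with a sum of 586 to 782 in mutants and 342 to 511 in wild types. For the neural retina, 5 of 6 measured markers were brighter, with a sum of 595 to 1278 in mutants and 281 to 690 in wild types. Mutant replicate 1 had the highest sum, which is mostly that of Stmn2 (9.52 in that array). That array was the highest for 3 of the 6 retina markers, mutant replicate 2 for 2 and wild-type replicate 3 for 1. Of all 12393 genes, these arrays were the highest for 1178, 1676 and 1771. For blood, 0 of 3 measured markers were brighter, and the sum was 23.0 to 216 in mutants, against 20.1 to 145 in wild types. Alas2, an enzyme of haem synthesis in red cell precursors, was at 7.67, 3.24 and 5.92 in mutants, against 6.99, 3.63 and 2.76 in wild types, highest in mutant replicate 1, and the highest sums of this list are mostly that of Alas2. The other measured blood markers, Hba-a1 and Epb42, were lowest in mutant replicate 1, at 2.50 and 2.76, and highest in wild-type replicate 1, at 3.24 and 3.12. Higher means in mutants were found for 8 of 8 macrophage, 6 of 6 retina and 4 of 4 pigment cell markers. The median differences of these lists were 0.86, 0.89 and 0.69. With each array left out in turn the macrophage median ran from 0.30 to 1.23 and the retina median from 0.44 to 1.40. Means were also higher for 6 of 6 corneal epithelium markers, but for 2 of 6 muscle and 1 of 3 blood markers. Over all genes 47.8% had a higher mean, and no marker here passed the test. The groups did not overlap, with mutants higher, for 2 of 8 macrophage, 2 of 4 pigment cell and 1 of 6 retina markers. They did so for 0 of the corneal epithelium, muscle and blood markers, and for 4.22% of all genes. No listed marker of the corneal endothelium was analysed here (0 of 3).

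Genes whose levels over the 6 arrays were most like those of a member were looked up for 1 member of each role, picked by its signal, which gives no order of abundance. For the proteoglycan Ogn the 3 genes of highest Pearson correlation among 6867 genes brighter than the median probe set were Mme (r = 0.985), Iqsec1 (r = 0.962) and the crystallin gene Cryab (r = 0.942). For Foxc1 on 1419485_at they were Dcun1d5 (r = 0.996), Atp6v1h (r = 0.995) and Rsrp1 (r = 0.995). Each of these was lowest in wild-type replicate 1, as Foxc1 was on that probe set but not on 1419486_at. For Thbs2 on 1450663_at they were Scrn3 (r = 0.993), Cyb5b (r = 0.977) and Igfbp5 (r = 0.975), lowest in wild-type replicate 1 too. These correlations describe 6 arrays that share one normalisation, and the highest of so many values is high with so few points.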

How the data were processed

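Lens RNA was measured on 1 array per sample. The authors deposited 1 intensity per probe set and array, on a linear scale. Per the submitters' processing notes they used RMA (version not stated), which corrects background, normalises by quantiles and summarises probes. Such steps can compress differences of dim probe sets. The steps between RMA and the deposited scale are not given in the sources used here. Here log2 was taken with no pseudocount, 64 array controls were left out, and 22626 probe sets were fitted with lmFit and eBayes of limma 3.58.1 in R 4.3.3, comparing mutants with wild types without covariates, with Benjamini-Hochberg adjustment over all of them (threshold 0.05). The number of arrays limits the precision. Genes were named through the platform annotation of the array; 20380 probe sets had 1 symbol, and 0 symbols changed on matching 20351 of them to RefSeq by Entrez ID. Where a gene has several probe sets, the brightest stands for it. Groups came from the labels, and 0 value columns were left out. No pair of arrays shared more than 0.186% of its values. Standard errors and 95% intervals come from the fit, SDs from the 3 arrays of a group.

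Members, lists, alternatives and the rule for names (all members, and the 2 genes of lowest p in each related list; the 3 genes most correlated with the member of highest signal in each role) were chosen with earlier results of these data known. Col1a1, Col3a1, Col12a1, Epyc, Alas2, Hba-a1, Epb42, Rgs5, Cspg4, Kcnj8, Anpep, Krt12, Stmn2, Bfsp1, Foxe3 and Cryaa were named after their values were seen. The fit was tested on simulated data. A minimum of calls was required there only for changes larger than any member difference. That requirement does not show whether changes of the members' size would be called. Alternatives were array weights, a replicate block, a trended prior, a pseudocount of 16, quantile normalisation, median centring, removal of dim probe sets, averaging over the probe sets of a gene, and leaving out each array, or wild-type replicate 1 with mutant replicate 2. The count of members with a higher mean was recomputed under each of them, which was added after seeing the data.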

Additional observations from a re-analysis of the deposited data

How the results depend on the processing

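No member probe set was called under any alternative run (0 in each), and the lowest adjusted p of a member was 0.203, for Foxc1 on 1419486_at with array weights. Array weights gave 7 called probe sets over the whole table, where the unweighted fit gave 0; wild-type replicate 3 then had a weight of 5.65 and wild-type replicate 1 one of 0.224. With single arrays left out, 0 probe sets were called, the median difference over the members ran from -0.18 to 0.52 and the number of members with a higher mean from 3 to 6 of 8. That number was 3 without wild-type replicate 1, also with mutant replicate 2 left out, and 1 of the 3 left with dim probe sets removed, where the median was -0.16. The median was -0.04, with 3 of 8 higher, with the mean of each gene's probe sets and within 0.01 of 0 with array weights; causes were not tested. The differences of Lum, Dcn, Postn, Ogn, Foxc2, the dim Foxc1 probe set and the dimmer Thbs2 probe set kept their sign in every alternative run for them; with dim probe sets removed only Ogn, Foxc2 and Foxc1 on 1419485_at had a value. Those of Kera, Foxc1 on 1419485_at and Thbs2 on 1450663_at changed sign under 2, 3 and 3 alternatives, which for Foxc1 were array weights and those without wild-type replicate 1. The labels give the groups the same replicate numbers without saying that they mark a litter or day. Deviations of same-numbered arrays from their group means correlated at -0.07, -0.26 and -0.16, and no array correlated best with its own number. With 3 arrays in a group, these correlations cannot decide whether the numbers mark a pairing. With the replicate number as a block 0 probe sets were called and the median difference was 0.23.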
